A study of Caenorhabditis elegans with 6 samples.

Results

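miR-252-5p and miR-251 are a pair of *Caenorhabditis elegans* microRNAs (miRNAs, short RNAs that repress messenger RNAs) grouped together by their seed, the stretch near the 5′ end that pairs with targets. Both names were found in the count files of all 6 libraries, so the pair makes up 2 of the 437 listed mature miRNAs. Its members are defined by name and not by a measured value, and the pair was picked with earlier results of these data known. The libraries came from whole worms of the wild-type N2 strain, 3 from untreated controls and 3 from worms exposed as L4 larvae to cadmium chloride at 60 µmol/L. The medium was NGM with OP50 bacteria, and per the labels the exposure took place at 20 °C. Its length is not given in the labels. The replicates are numbered, but nothing says that they came from separate cultures, so p-values measure the spread between these samples, which may be technical.

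A miRNA is cut from a hairpin precursor, and usually one arm of the hairpin (5p or 3p) is loaded into an Argonaute protein as the guide while the other is discarded. miRNAs that share a seed can repress overlapping sets of targets, so the summed level of such miRNAs bears on the same targets as the level of each. miR-251 and miR-252 belong to the family of miR-252, which is also found in insects. In *Drosophila*, miR-252 has been reported to repress mbt, a p21-activated kinase, in developmental growth. No targets were measured in the libraries described here.

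The hairpins lie on different chromosomes in the WBcel235 genome, the build that the submitters' processing notes also name. mir-251 is at chrX:11004728-11004824 on the plus strand. It lies between protein-coding genes, 159 bp from the nearer one, del-5, which is on the minus strand. The annotated mature miR-251 covers 11004746 to 11004767 and begins at base 19 of the 97-base hairpin, so it lies in the 5′ arm, although its name carries no arm. mir-252 is at chrII:11446863-11446960 on the minus strand, within an intron of the protein-coding gene W02B12.13 and an exon of the non-coding RNA gene W02B12.17, both on the opposite strand. Whether the counting used strand is not given in the sources used here. miR-252-5p covers 11446918 to 11446940 and begins at base 21 of a 98-base hairpin. miR-252-3p covers 11446883 to 11446901. The mature forms of miR-251 and miR-252-5p are 22 and 23 bases long, so counts were compared between them without a length correction. Whether they enter sequencing libraries with equal efficiency was not measured.

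Total counts per library ran from 1640693 to 3917414, and the library with the lowest total was control replicate 1. The miR-35 family, guide miRNAs of the embryo and germline, took 7.25% to 11.7% of the counts in control libraries and 1.80% to 2.63% in cadmium libraries. The tissue markers miR-1-3p (muscle), lsy-6-3p and miR-124-3p (neurons), and the stage markers lin-4-5p and let-7-5p (larva and adult) were present in all 6 libraries. In whole worms, fewer cells of a type and less RNA per cell cannot be told apart.

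miR-252-5p was the more abundant of the pair and was lower in each cadmium library than in any control library, but the difference did not pass the test. Control replicates 1 to 3 held 814, 942 and 1526 reads of it, and cadmium replicates 1 to 3 held 1045, 1148 and 622. In CPM (counts scaled to a common library size) with factors from the trimmed mean of M-values (TMM), a method that sets libraries on a common scale, these became 435, 364 and 387 CPM in controls. The cadmium libraries had 296, 339 and 278 CPM. The lowest control library was therefore above the highest cadmium library, and the deposited CPM, which use library totals, separated the groups as well (388 to 496 CPM in controls, 241 to 312 CPM in cadmium libraries).

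The mean level of miR-252-5p was 395 ± 36.1 CPM (SD, n = 3) in controls and 304 ± 31.5 CPM (SD, n = 3) in cadmium libraries. The fitted log2 fold change was −0.38 (SE 0.20, 95% interval −0.81 to 0.06), that is, 0.771 of the control level. The adjusted p in edgeR's quasi-likelihood test over all 208 tested miRNAs was 0.203, against a threshold of 0.05, and the unadjusted p was 0.0841. Among all tested miRNAs, 21.6% passed that threshold in either direction. Groups that did not overlap were common too, in 38.5% of tested miRNAs, and in 20.7% the control libraries were the higher ones, as for miR-252-5p. The miR-35 family took its smaller share in the same libraries. Without its members in the fit the log2 fold change of miR-252-5p was −0.39 (adjusted p 0.196 in edgeR). That fit only takes the family's counts out of the scaling and the test. Whether the worms differed in embryo or germline content was not tested.

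miR-251 was the rarer miRNA in every library and showed no group difference that could be told from the replicate spread. It had 31, 124 and 107 reads in the controls, in order of replicate, and 129, 76 and 120 reads in the cadmium libraries. On the TMM scale the control libraries had 16.6, 47.9 and 27.2 CPM, and the cadmium libraries had 36.6, 22.5 and 53.6 CPM. The groups overlapped over most of their range, with the lowest library in the control group and the highest in the cadmium group.

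The means of miR-251 were 30.5 ± 15.9 CPM (SD, n = 3) in controls and 37.5 ± 15.6 CPM (SD, n = 3) in cadmium libraries. Its log2 fold change was 0.28 (SE 0.41), and the adjusted p from edgeR was 0.638. The 95% interval, −0.62 to 1.18, spans from 0.649 to 2.26 of the control level, so the data do not distinguish a fall, no change or a rise within those limits. Without cadmium replicate 3 the sign turned, to −0.068, without control replicate 1 the value was 0.0012, and without control replicate 2 it was 0.74 (adjusted p 0.195). The sign of this difference therefore rests on single libraries.

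**Figure D1:**
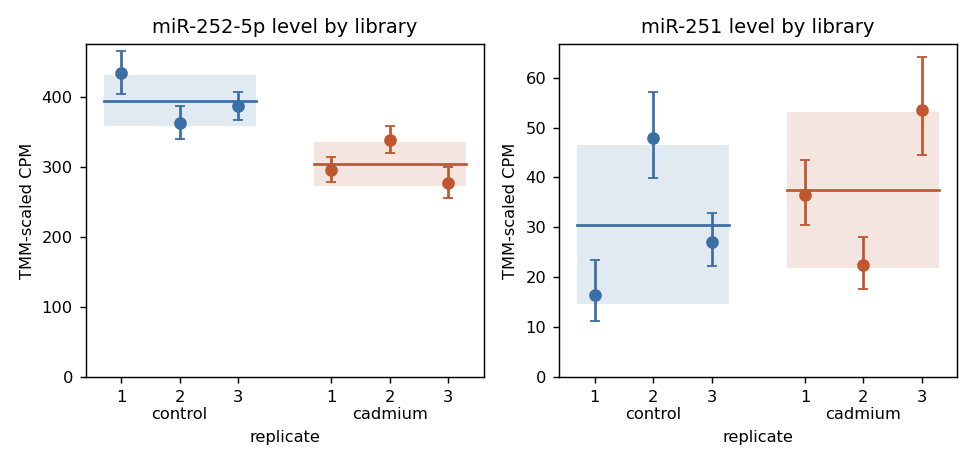
TMM-scaled CPM (y axis, from 0) of miR-252-5p (left) and miR-251 (right) in each library. Points are libraries with exact 95% Poisson counting intervals, lines are group means and shaded bands are ± 1 SD (n = 3). For miR-252-5p all control points lie above all cadmium points, with 364 as the lowest control and 339 as the highest cadmium value, while for miR-251 the groups overlap.

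The replicate spread of miR-251 was large and exceeded counting error. In controls its lowest and highest libraries differed 2.89-fold, and the exact 95% Poisson intervals of control replicates 1 (11.2 to 23.5 CPM) and 2 (39.8 to 57.1 CPM) did not overlap. In cadmium libraries the lowest and highest differed 2.39-fold, with intervals of 17.7 to 28.1 CPM in replicate 2 and 44.4 to 64.1 CPM in replicate 3. These intervals cover counting error only, since no molecular identifiers are named. The biological coefficient of variation that edgeR estimated for miR-251 was 34.8%, which ranked 9 from the top among the 208 tested miRNAs. That of miR-252-5p was 18.9%, below the median of 22.6%, and its libraries within a group differed by at most 1.22-fold on the TMM scale.

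The members ran opposite to each other within groups. Among the controls, replicate 1 had the highest miR-252-5p and the lowest miR-251, and replicate 2 had the lowest miR-252-5p and the highest miR-251. Among the cadmium libraries, replicate 2 had the highest miR-252-5p and the lowest miR-251, and replicate 3 the reverse. In deposited CPM the opposite order held in the controls but not fully in the cadmium libraries, where replicate 1 had the highest miR-252-5p (312 CPM) and an intermediate miR-251 (38.5 CPM). Over the 6 libraries the Pearson correlation of their log2 levels on the TMM scale was −0.73. It is given as a description, since the groups differ in level and both members share the scaling factor of each library.

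The ratio of the pair is free of library scaling, since both counts come from the same library. miR-252-5p exceeded miR-251 by 26.3, 7.60 and 14.3 times in control replicates 1 to 3. In cadmium replicates 1 to 3 it did so by 8.10, 15.1 and 5.18 times. miR-252-5p was the higher in all 6 libraries, but the ratio spanned 3.46-fold within the controls and 2.91-fold within the cadmium libraries, and the groups overlapped.

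On the log2 scale the ratio was 3.81 ± 0.89 (SD, n = 3) in controls and 3.10 ± 0.77 (SD, n = 3) in cadmium libraries. The difference of −0.72 was smaller than either SD, and an exact two-sided permutation test over the 20 splits of 3 against 3 libraries gave p = 0.5, where the smallest possible p is 0.1. This is also the test of whether the changes of the members differed from each other, and no such difference was detectable. The estimate itself moved from −0.28 without control replicate 1 to −1.16 without control replicate 2.

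**Figure D2:**
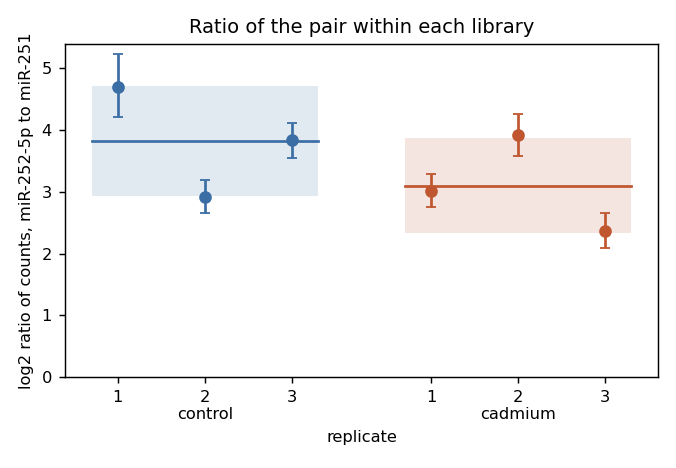
The log2 ratio of miR-252-5p to miR-251 counts (y axis, from 0, with 0.5 added to each count) in each library. Points carry 95% Wilson counting intervals, lines are group means and bands ± 1 SD (n = 3). Control values run from 2.92 to 4.69 and cadmium values from 2.37 to 3.91, so the groups overlap.

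As a share of the pair, miR-251 made up 3.67% of the counts in control replicate 1 (95% Wilson interval 2.60% to 5.16%), the lowest of all libraries. The highest share, 16.2% (13.7% to 19.0%), was in cadmium replicate 3. The other 4 libraries lay between 6.21% and 11.6%. Within the controls, the interval of replicate 1 did not overlap that of replicate 2 (9.84% to 13.7%), and within the cadmium libraries that of replicate 3 did not overlap that of replicate 2 (4.99% to 7.70%).

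The summed level of the pair followed its larger member. It was 451, 412 and 414 CPM in control replicates 1 to 3, and 333, 362 and 331 CPM in cadmium replicates 1 to 3. The groups did not overlap, but neither did they in 38.5% of single tested miRNAs, or 20.7% counting only those with controls higher. The means were 426 ± 22.1 and 342 ± 17.1 CPM (SD, n = 3 each), which put the cadmium mean 19.7% below the control mean on the TMM scale. In deposited CPM the cadmium mean was 29.9% lower. The sum is given as a description, with no test.

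The other arm of mir-252 was close to absent. miR-252-3p had 1, 0 and 1 reads in the controls and 1, 1 and 0 reads in the cadmium libraries, all under the floor of 3 counts, so no group comparison was made. Over all libraries it made up 4 of 6101 counts of the hairpin, or 0.0656% (exact 95% interval 0.0179% to 0.168%). The guide arm thus accounted for nearly all counts of mir-252 in control and cadmium libraries alike. The interval pools the reads of all libraries and covers counting error only, not the spread between libraries. For mir-251, miR-251 was the only name in the count files.

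Among the 208 tested miRNAs, miR-252-5p ranked 71 and miR-251 ranked 126 by mean level over the 6 libraries, at 350 and 34.0 CPM on the TMM scale. Next above miR-252-5p in level came miR-46-5p, the minor arm of its hairpin, at 357 CPM, and next below came miR-233-3p at 327 CPM. The order of miR-46-5p and miR-252-5p differed between the groups. miR-46-5p went from 278 ± 23.1 to 436 ± 47.7 CPM (SD, n = 3 each) and rose with an adjusted p of 0.0409 in edgeR, so that it lay below miR-252-5p in controls and above it in cadmium libraries. This call of miR-46-5p was lost when any single library other than cadmium replicate 1 was left out (adjusted p up to 0.148). miR-233-3p, at 354 ± 6.68 and 300 ± 29.4 CPM, was within the spread of miR-252-5p in cadmium libraries. miR-251 lay between miR-86-3p (37.4 CPM) and miR-8196a-3p (34.0 CPM), and its replicate spread covered both.

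**Figure D3:**
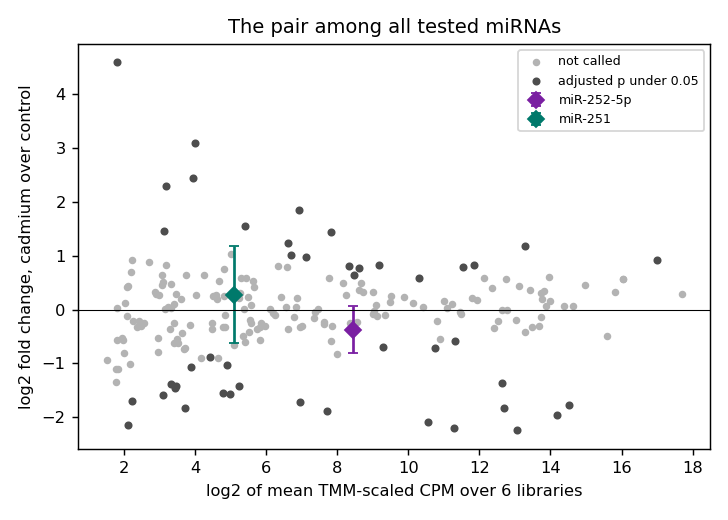
Log2 fold change, cadmium over control (y axis), against the log2 mean TMM-scaled CPM over 6 libraries (x axis) for the 208 tested miRNAs. Dark points passed an adjusted p of 0.05 in edgeR, and diamonds mark the pair with 95% intervals. Both diamonds lie among the grey points, at −0.38 for miR-252-5p and 0.28 for miR-251, and both intervals include 0.

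miR-252-5p was set beside other worm miRNAs that have a fly relative, on a list of 15 guide arms that includes it. The list is a selection, made with earlier results of these data known, and does not hold every worm miRNA with a fly relative. Its counts and ranks therefore hold within it only. All 15 were tested. Of these, 2 passed the threshold in edgeR, both higher in cadmium libraries, against 45 of all 208 (20 higher and 25 lower). They were miR-58a-3p, the worm relative of fly bantam (log2 fold change 0.93, adjusted p 0.0431), and miR-79-3p, of the miR-9 family (0.76, adjusted p 0.0475). The median log2 fold change of the list was 0.25, beside 0.0039 over all tested miRNAs. Of all 208, 103 were below 0, and miR-252-5p ranked 107 by the size of its log2 fold change in either direction. miR-252-5p had the lowest value on the list, and miR-235-3p, of the miR-92 family, was the only other member below 0, at −0.08 (adjusted p 0.785 in edgeR). Both calls were lost without control replicate 1, control replicate 3, cadmium replicate 2 or cadmium replicate 3, with adjusted p-values up to 0.207 for miR-58a-3p and 0.199 for miR-79-3p. With total-count scaling, 6 members were below 0 and 0 passed, and miR-252-5p was again the lowest.

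The size of the miR-252-5p difference moved with the scaling, while its direction did not. With total counts in place of TMM the log2 fold change was −0.57 (adjusted p 0.0964 in edgeR, unadjusted p 0.0241), but the median of all tested miRNAs moved to −0.16 as well. Relative to the median it was −0.41 with total counts and −0.38 with TMM. Across the 15 alternatives tried the value ran from −0.57 to −0.29, below 0 in each, with adjusted p-values from 0.0927 to 0.514. miR-251 was above 0 in 14 of 15 alternatives, with values from −0.068 to 0.74 and adjusted p-values from 0.195 to 0.998.

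**Figure D4:**
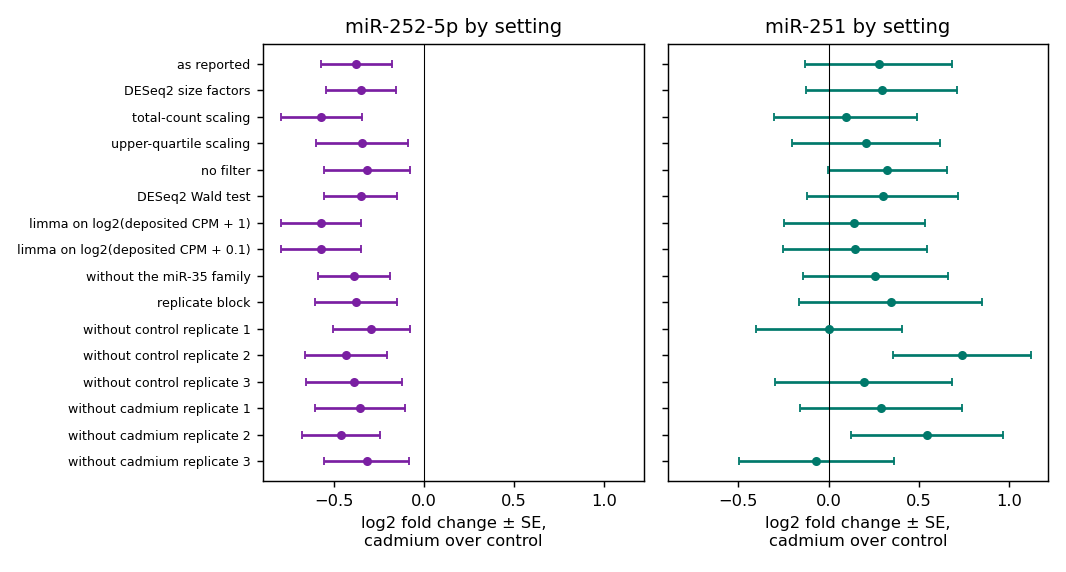
Log2 fold change ± SE, cadmium over control (x axis), of miR-252-5p (left) and miR-251 (right) under each processing setting (y axis). All values of miR-252-5p lie below 0, from −0.57 to −0.29, while those of miR-251 run from −0.068 to 0.74, with the extremes set by which library was left out.

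The miRNAs whose levels over the 6 libraries were most like those of each member differed in kind. Likeness was the Pearson correlation of log2(TMM-scaled CPM + 0.5) with the other 207 tested miRNAs, and because each had many chances to match by 6 points, the values are a description. For miR-252-5p the 3 most alike were miR-77-5p (r = 0.97), miR-240-5p (r = 0.97) and miR-41-5p (r = 0.94). miR-240-5p went from 68.0 ± 6.18 to 46.0 ± 4.43 CPM (SD, n = 3 each), without passing the test (adjusted p 0.113 in edgeR). The others fell, miR-77-5p by 1.72 on the log2 scale (adjusted p 0.00704 in edgeR) and miR-41-5p, an arm of a miR-35 family hairpin, by 1.55 (adjusted p 0.0362 in edgeR). The call of miR-41-5p held only without control replicate 2 or cadmium replicate 2 among the 6 fits with a library left out (adjusted p otherwise up to 0.143), while that of miR-77-5p held in all 6. With replicate number as a block in the edgeR fit neither call held (adjusted p 0.0683 for miR-77-5p and 0.0852 for miR-41-5p). Each of these 3 had all control libraries above all cadmium libraries, as did miR-252-5p and 20.7% of all tested miRNAs. They were picked for likeness to a profile whose groups separate, so their separation follows largely from the choice.

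For miR-251 the 3 most alike were miR-236-3p, the worm member of the miR-8 and miR-200 family (r = 0.97), miR-242 (r = 0.96) and miR-244-5p (r = 0.95). Their levels varied between replicates of one group much as miR-251 did. miR-236-3p had 191, 371 and 263 CPM in control replicates 1 to 3 and 288, 238 and 468 CPM in cadmium replicates 1 to 3. miR-242 had 173, 347 and 200 CPM in the controls and 330, 207 and 473 CPM in the cadmium libraries. Like miR-251, they were lowest in control replicate 1, and high in control replicate 2 and cadmium replicate 3. None of the 3 passed the test, with log2 fold changes of 0.27, 0.49 and −0.04 and adjusted p-values of 0.572, 0.347 and 0.960 in edgeR. Their mean levels over the 6 libraries were 303, 288 and 167 CPM, so their counts were larger than those of miR-251.

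**Figure D5:**
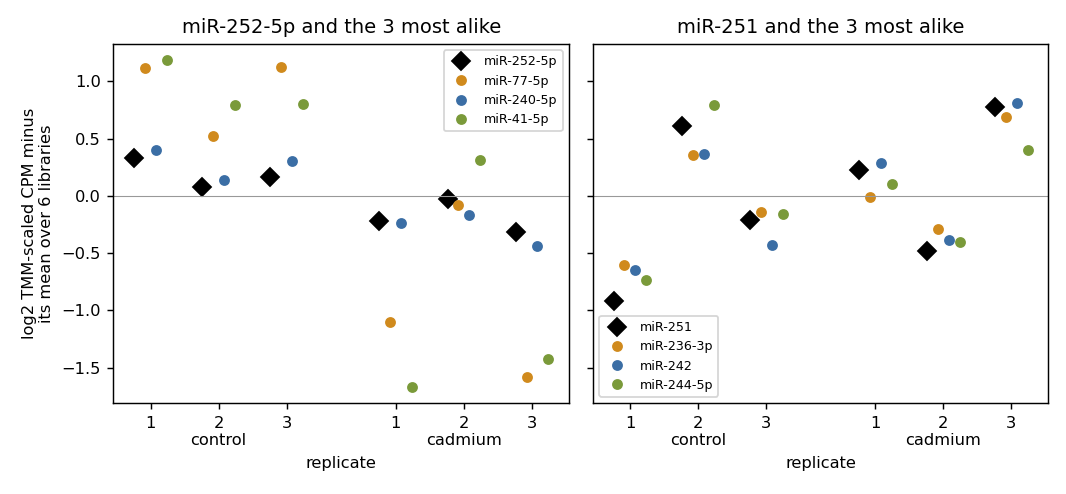
Log2 TMM-scaled CPM minus its own mean over the 6 libraries (y axis) in each library (x axis) for miR-252-5p (left) and miR-251 (right), black diamonds, and the 3 miRNAs most like each, coloured points. On the left each miRNA has its controls above its own cadmium libraries. On the right the points of all 4 miRNAs are low in control replicate 1 and cadmium replicate 2. They are high in control replicate 2 and cadmium replicate 3. The coloured miRNAs were picked for likeness, so the shared patterns follow largely from the choice.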

How the data were processed

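Small RNA libraries from 3 control and 3 cadmium-exposed samples were analysed, grouped by their titles. The deposited count files hold raw read counts per mature miRNA, and a second deposited file per library gives CPM, which the authors scaled by the sum over listed miRNAs and which matched values recomputed from the counts. Per the submitters' processing notes, cutadapt 3.4, Bowtie2 2.4.2, HISAT2 2.2.1 and the WBcel235 build were among the tools and builds used, with no role given. How reads matching several miRNAs were counted is not given in the sources used here. A further 12 columns in tables of the whole series, whose names match no sample title, were not used. Positions come from the Ensembl release 115 annotation. Mature sequences were not used here, so the shared seed was taken from the names' known family and not checked.

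In R 4.3.3, filterByExpr of edgeR 4.0.16 kept 208 of 437 miRNAs. TMM scaling and the quasi-likelihood F test (two-sided, no covariates, prior count 0.125) were applied to all 6 libraries, with Benjamini-Hochberg adjustment and a threshold of 0.05. Standard errors are the fitted log2 fold change divided by the square root of F. The ratio of the pair used a pseudocount of 0.5 and an exact permutation test. Alternatives were 3 other scalings, no filter, DESeq2 1.42.0, limma 3.58.1 on the deposited CPM, a fit without the miR-35 family, a replicate block and leaving out each library. The test was tried on 20 simulated data sets of 208 miRNAs in which 40 had a log2 change of 2, where edgeR found 96.4% of those and 4.72% of its calls were false. Smaller changes were not simulated.

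Named miRNAs were 5 tissue or stage markers, given only as present, the miR-35 family as a summed share, the pair, the other listed arm of their hairpins, the next miRNA above and below each in mean level, the 3 most alike in pattern, and members of the list with a fly relative that passed the test, beside miR-235-3p, which was named after its value was seen. The pair and the list were chosen with earlier results of these data known.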

Additional observations from a re-analysis of the deposited data

How the results depend on the processing

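Neither member passed the threshold under any of the 15 alternatives. The log2 fold change of miR-251 reversed without cadmium replicate 3, at −0.068, and kept its sign in the other 14. With 1 library left out it ran from −0.068 to 0.74, that of miR-252-5p from −0.46 to −0.29, and the difference in log2 ratio from −1.16 to −0.28, with exact permutation p-values from 0.3 to 0.8. The log2 ratio kept its direction in all 9 alternatives. The number of miRNAs called, 45 as reported with edgeR, ran from 22 to 49 in edgeR with 1 library left out (22 without control replicate 3, 27 without cadmium replicate 2). It ran from 30 to 56 under the other edgeR alternatives apart from the replicate block, and was 60 with the DESeq2 Wald test and 39 and 38 with limma on the deposited CPM with 1 and 0.1 added. The share of calls that were higher moved from 44.4% to 23.1% with total-count scaling, 20.5% and 21.1% with limma on the deposited CPM with 1 and 0.1 added, and 55.4% with no filter. Of the 15 listed miRNAs with a fly relative, between 0 and 3 passed across 16 fits. The cause of these differences was not tested.

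The deviations of libraries with the same replicate number were not positively related (r = −0.04, −0.29 and −0.30), and 0 of 6 libraries correlated best with its own number, so the numbers were not taken as pairs. With a replicate block the number of calls was 17, the log2 fold changes were −0.38 for miR-252-5p (adjusted p 0.314 in edgeR) and 0.34 for miR-251 (0.687), and the paired difference in log2 ratio was −0.72 (exact sign-flip p 0.5). The planned test of the arm ratio of mir-252 was not run, since miR-252-3p had a mean of 0.667 counts against the minimum of 10. Depth limits miR-251 most in control replicate 1, where it had 31 counts.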
